A study of Xenopus laevis with 54 samples.

Results

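The Notch ligands, receptors and nuclear partners and the Hes and Hey repressors made up 62 of the 50489 genes measured in eggs and early embryos of the frog Xenopus laevis. They were taken by name alone, as every gene whose symbol begins with dll, notch, jag, hes, hey, lfng, mfng, rfng, rbpj or maml and belongs to these families. The frog's doubled genome gives many genes an L form and an S form, named by the last letter of the symbol. The members were 7 ligands, 7 receptors, 3 fringe enzymes, 6 genes of the nuclear complex, 3 Hey genes, 10 genes of the Hes1, Hes2, Hes4 and Hes6 families and 26 of the Hes3, Hes5 and Hes7 families. The table held hes4.S under 2 gene identifiers, gene36932 and gene44743, between which reads of like sequence could have been split.

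All samples were wild type. Embryos of the bead, flowthrough and total RNA libraries had each received 10 nl of 50 mM 5-ethynyl uridine (EU) at the single-cell stage, about 0.5 mM in the embryo, and were collected as blastulae at 5, 6, 7, 8 or 9 hours post fertilization (hpf). EU is a uridine analog that is built into new RNA. Bead RNA was the part captured through that label, flowthrough RNA was what the capture left, and total RNA was not separated. The eggs were unfertilized and had no EU treatment. There were 4 replicates of bead and of flowthrough RNA at every time, 4 of total RNA at 5 hpf, 2 of total RNA at 6, 7, 8 and 9 hpf and 2 of eggs. Replicates 1 and 2 were the clutches of experiment 1 and replicates 3 and 4 those of experiment 2, and values below are listed in that order. Total RNA of 6 to 9 hpf came from experiment 1 only and eggs, replicates 1 and 2, from experiment 2 only. No capture from embryos without EU is named in the labels, so the bead value of unlabelled RNA was not measured. These are whole embryos in bulk, in which fewer cells with a message and less of it per cell cannot be told apart.

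Notch signalling passes between touching cells. A Delta (dll) or Jagged (jag) ligand on one cell binds a Notch receptor on its neighbour, the receptor is cut, and its inner part enters the nucleus, where it joins the DNA-binding protein Rbpj and a Mastermind (maml) coactivator. Fringe enzymes add sugars to the receptor and so change which ligand it answers to. The complex turns on Hes and Hey genes, basic helix-loop-helix repressors, and in Xenopus embryos the pathway is known for spacing neurons in the neural plate and ciliated cells in the epidermis. Hes genes also answer to other signals than Notch.

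Values are the authors' DESeq2-normalized numbers, rounded to whole numbers and not divided by gene length, so they were compared between samples and not between genes. Bead libraries of experiment 2 held 12814 to 18990 genes above 0, with 21 to 35 members among them, and bead libraries of experiment 1 held 23212 to 28348 genes, with 34 to 55 members. The labels call replicates different clutches, yet replicates 1 and 3 deviated alike from replicates 2 and 4 across abundant genes, with a correlation of the 2 differences of 0.749 to 0.856 in flowthrough RNA, 0.847 in total RNA of 5 hpf and 0.174 to 0.361 in bead RNA. Whether they share a clutch is not given, and averaging each such pair left 11 of the 12 bead calls below. The labelled stage was checked against markers. The summed value of 20 genes known to start in the blastula was 38659 to 59537 in bead RNA of 9 hpf, against 39 to 192 in bead RNA of 5 hpf, and 22386 to 24978 in total RNA of 9 hpf, against 9 to 27 in total RNA of 5 hpf. The summed value of 12 genes listed as egg markers was 10419 to 10833 in eggs, 2 of them at 0 in both. It was 8839 to 10814 in total RNA of 5 hpf and 8958 to 9609 at 9 hpf, and so the sum tells little of the stage. Single genes moved in opposite directions under it. In total RNA btg4.S had 1598, 1697, 1605 and 1520 at 5 hpf and 600 and 587 at 9 hpf. There vegt.L had 2035, 2080, 2425 and 2632 at 5 hpf and 3066 and 2941 at 9 hpf. Of 9 tested as below, 2 were called lower at 9 hpf and 0 higher, where 2.0% and 6.25% of all genes were. Bead RNA held these egg markers too, with sums of 7064 to 9174 at 5 hpf and 5821 to 8121 at 9 hpf. The sums in flowthrough RNA were 8029 to 9336 and 6458 to 8153. How much of a bead value was new RNA was not measured. The 18 markers of follicle and blood cells summed to at most 271 in these groups, with 8 to 15 of the 18 at 0 in every library of a group. In bead RNA of 9 hpf, where they summed to 19 to 241, most of the sum was amh.S, with 217, 52, 204 and 19.

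In eggs, 24 of the 62 members had a value of at least 10 in both libraries, and they included 4 ligands, 4 receptors, all 3 fringe genes, 5 genes of the nuclear complex and 6 of the 10 Hes1, Hes2, Hes4 and Hes6 genes. None of the 26 Hes3, Hes5 and Hes7 genes was among them, and 23 of these 26 were under 10 in both eggs. Summed over those 26 genes, total RNA gave 20 and 56 in the eggs, 17 to 59 at 5 hpf, 63 and 75 at 6 hpf, 278 and 424 at 7 hpf, 725 and 898 at 8 hpf, and 672 and 743 at 9 hpf. In bead RNA the same sum was 27 to 65 at 5 hpf, 51 to 228 at 6 hpf, 665 to 1912 at 7 hpf, 629 to 2143 at 8 hpf and 915 to 2435 at 9 hpf. Flowthrough RNA stayed between 8 and 49 at every time. The Hes3, Hes5 and Hes7 sum was above all its 5 hpf libraries in every bead and total RNA library of 7 to 9 hpf. Over all members, 30 reached a group mean of 50, 12 never reached 20 in a library, and hes5.2.S, hes5.3.S and hes6.2.S were listed at 0 in all 54 libraries.

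**Figure D1:**
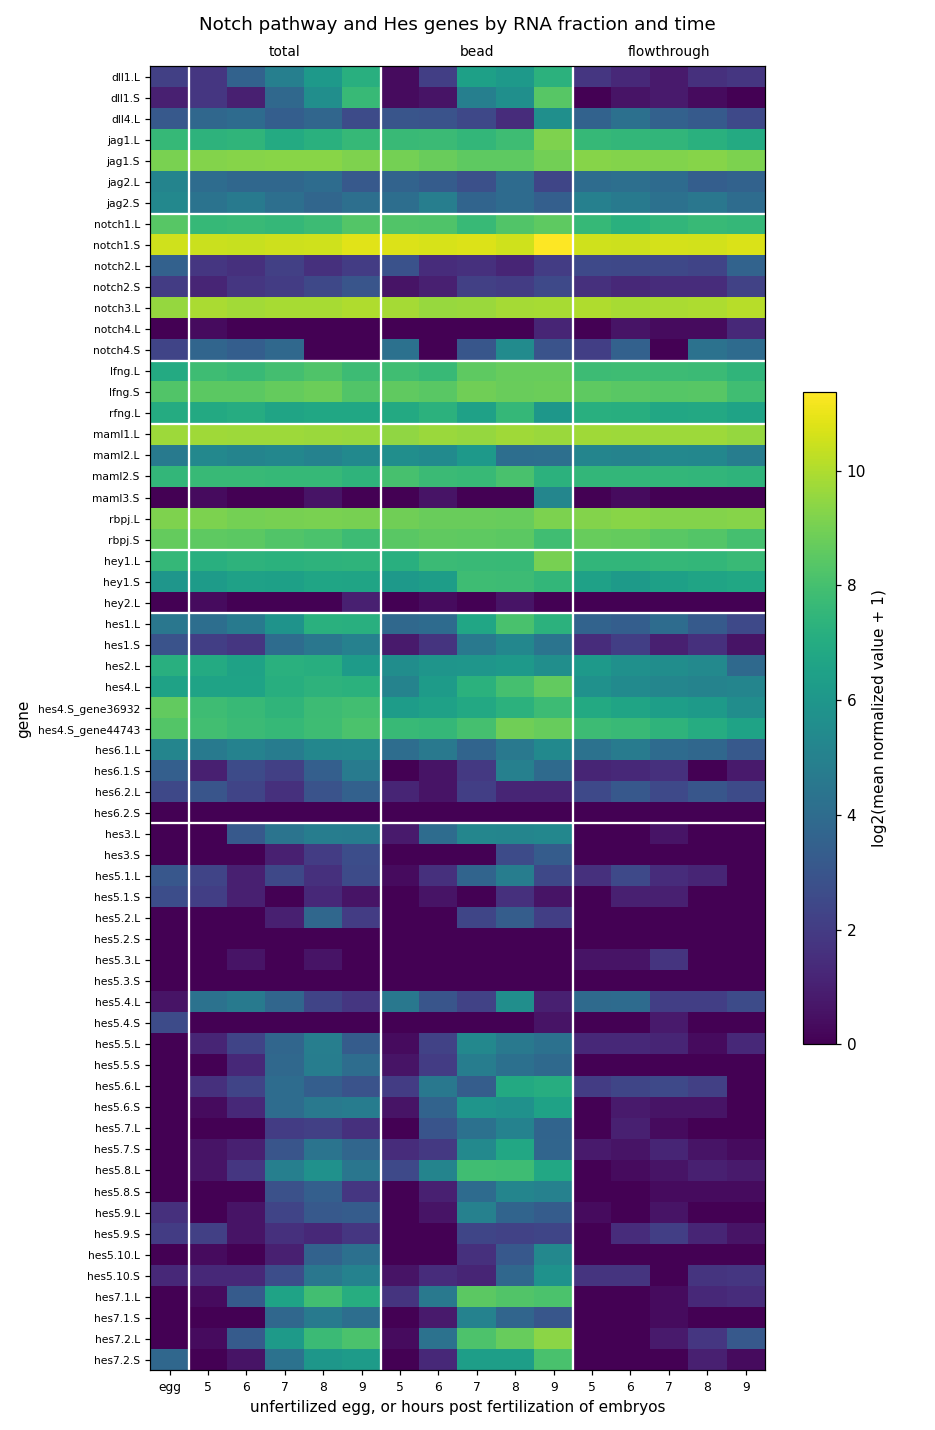
Mean normalized value of each of the 62 members, as log2(mean + 1) in colour, in eggs, total, bead and flowthrough RNA, with hours post fertilization along the horizontal axis and white lines between the roles. Among the receptors and nuclear partners notch1.S, notch3.L, maml1.L, rbpj.L and rbpj.S are bright in every column, while notch2, notch4.L and maml3.S are dark in most. The Hes3, Hes5 and Hes7 genes at the bottom are mostly dark in eggs and flowthrough RNA. Many of them brighten from 6 and 7 hpf in total and bead RNA, while others, such as hes5.2.S and hes5.3.S, stay dark.

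Both dll1 copies, hes4.L and 9 of the Hes3, Hes5 and Hes7 genes rose in bead RNA by 9 hpf. A gene was called where limma gave an adjusted p under 0.05 over all genes tested and a change of at least 2-fold on log2(value + 1). In bead RNA, 47 members passed the filter on low values. None was called at 6 hpf against 5 hpf (3 had an unadjusted p under 0.05), 5 were called higher at 7 hpf, 6 at 8 hpf and 12 at 9 hpf, where 0.101%, 1.25%, 3.16% and 5.83% of all genes tested were. None was called lower at 9 hpf, nor had a member an unadjusted p under 0.05 in that direction, while 1.43% of all genes were called lower. At 8 hpf, where 0.0435% of all genes were lower, the same held. The 12 were dll1.L, dll1.S, hes3.L, hes4.L, hes5.6.S, hes5.8.L, hes5.8.S, hes5.10.L, hes5.10.S, hes7.1.L, hes7.2.L and hes7.2.S. The median log2 change at 9 hpf was 1.55 over the 47 members and -0.33 over all genes. A member that passed the filter only through the libraries in which it was high had to differ. These counts, and the p-values of such members here and below, describe the members and support nothing further.

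The bead counts differed between the experiments. In experiment 1 alone all 12 were called, among 25 members in all, where 8.3% of all genes were. In experiment 2 alone no member was called, where 1.23% of all genes were. There 7 members had an unadjusted p under 0.05 by limma, of which hes7.2.L, hes7.1.L, dll1.S, hes5.6.S and hes4.L were among the 12. Of the 12, 10 were tested in experiment 2, all with a positive change and adjusted p of 0.0737 to 0.61. Without a term for experiment the count was 6, where 3.6% of all genes were. Leaving out single libraries gave 6 to 12, with 6 without bead 5 hpf replicate 1, and dll1.S, hes4.L, hes5.6.S, hes7.1.L, hes7.2.L and hes7.2.S kept their calls each time. The count at 7 hpf fell to 2 without bead 5 hpf replicate 1 or 4 or bead 7 hpf replicate 1, and to 3 without bead 5 hpf replicate 2 or 3 or bead 7 hpf replicate 3. At 8 hpf it was 12 without bead 8 hpf replicate 3.

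Total RNA, which was not passed over beads, was tested in the same way. Of 48 members tested, none was called higher at 6 hpf than at 5 hpf (4 had an unadjusted p under 0.05), 5 were at 7 hpf, 15 at 8 hpf and 16 at 9 hpf, where 0.065%, 1.12%, 4.09% and 6.25% of all genes were. One member was lower at 9 hpf, hes5.4.L, against 2.0% of all genes. The 16 held 10 of the 12 genes called in bead RNA. Here too a member could pass the filter through later libraries alone, so the counts, and the p-values of such members, only describe the members. The calls in total RNA rest on 2 libraries a later time, and in experiment 1 alone 12 of the 16 were called. The 7 hpf count was 2 without total 5 hpf replicate 1 or 2 or total 7 hpf replicate 1 or 2, and 3 without total 5 hpf replicate 3 or 4. At 8 hpf it was 7 without total 5 hpf replicate 1 and 8 without total 8 hpf replicate 1 or 2, and at 9 hpf it was 10 without total 9 hpf replicate 2. Counted by the first time from which a member stayed called, bead RNA had 3 members from 7 hpf, hes5.8.L, hes7.1.L and hes7.2.L, 2 from 8 hpf and 7 from 9 hpf, and total RNA had 5 from 7 hpf, 8 from 8 hpf and 3 from 9 hpf.

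Among the ligands, both copies of dll1, the Delta ligand of neural lateral inhibition in the frog, rose from near 0. In total RNA dll1.L had 3, 3, 1 and 3 at 5 hpf, 15 and 7 at 6 hpf, 37 and 20 at 7 hpf, 56 and 83 at 8 hpf and 129 and 158 at 9 hpf. Its bead values were 0, 1, 0 and 0 at 5 hpf, 162, 92, 0 and 96 at 7 hpf and 244, 274, 104 and 0 at 9 hpf. The total RNA groups of 9 and 5 hpf did not overlap, while 1 bead library of 9 hpf was still at 0. The log2 change at 9 hpf against 5 hpf was 5.17 ± 0.58 in total RNA (SE, adjusted p = 0.00023) and 5.44 ± 1.53 in bead RNA (adjusted p = 0.0278). The bead call was lost without bead 5 hpf replicate 1 or 2 or bead 9 hpf replicate 1, 2 or 3, at adjusted p of 0.0606 to 0.106.

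The S copy rose as well. In total RNA dll1.S had 1, 4, 2 and 3 at 5 hpf, 0 and 2 at 6 hpf, 12 and 15 at 7 hpf, 45 and 50 at 8 hpf and 188 and 217 at 9 hpf. Bead RNA gave 50, 22, 43 and 0 at 7 hpf, 70, 122, 7 and 0 at 8 hpf and 351, 334, 139 and 518 at 9 hpf, and no library of 5 hpf was above 1. All 4 bead libraries of 9 hpf lay above every bead library of 5 to 8 hpf. The bead change was 8.00 ± 1.22 on the log2 scale (adjusted p = 9.14e-05) and the change in total RNA was 6.00 ± 0.73 (adjusted p = 0.000371). Where 5 hpf values are at or near 0, the size of a log2 change depends on the 1 added to each value. In bead and total RNA both dll1 copies passed the filter through libraries later than 5 hpf alone. Their p-values thus only describe them. Flowthrough RNA of 5 to 9 hpf held at most 5 of dll1.L and 2 of dll1.S.

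Jagged messages were present in eggs. The copy jag1.S, a ligand that signals through the same receptors, had 516 and 576 in eggs, 642, 594, 668 and 563 in total RNA of 5 hpf and 532 and 627 in total RNA of 9 hpf. No comparison over time called it. The copy jag1.L had 577, 531, 580 and 609 in bead RNA of 9 hpf, against 350, 198, 242 and 45 in bead RNA of 5 hpf, and 160, 106, 129 and 91 in flowthrough RNA of 9 hpf. Its 9 hpf bead libraries lay above all its other bead and flowthrough libraries. The bead change over time missed the threshold at 1.78 ± 0.58 (adjusted p = 0.0615) and passed it with the replicate number as a block (adjusted p = 0.0313), and the difference of bead from flowthrough RNA at 9 hpf passed it at 2.26 ± 0.47 (adjusted p = 0.000403). In experiment 2 alone that difference was not called. The remaining ligands were low. Bead RNA of 9 hpf held 9, 13, 176 and 0 of dll4.L, and jag2.L and jag2.S had at most 35 and 54 in any library, with their highest group mean in eggs.

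**Figure D2:**
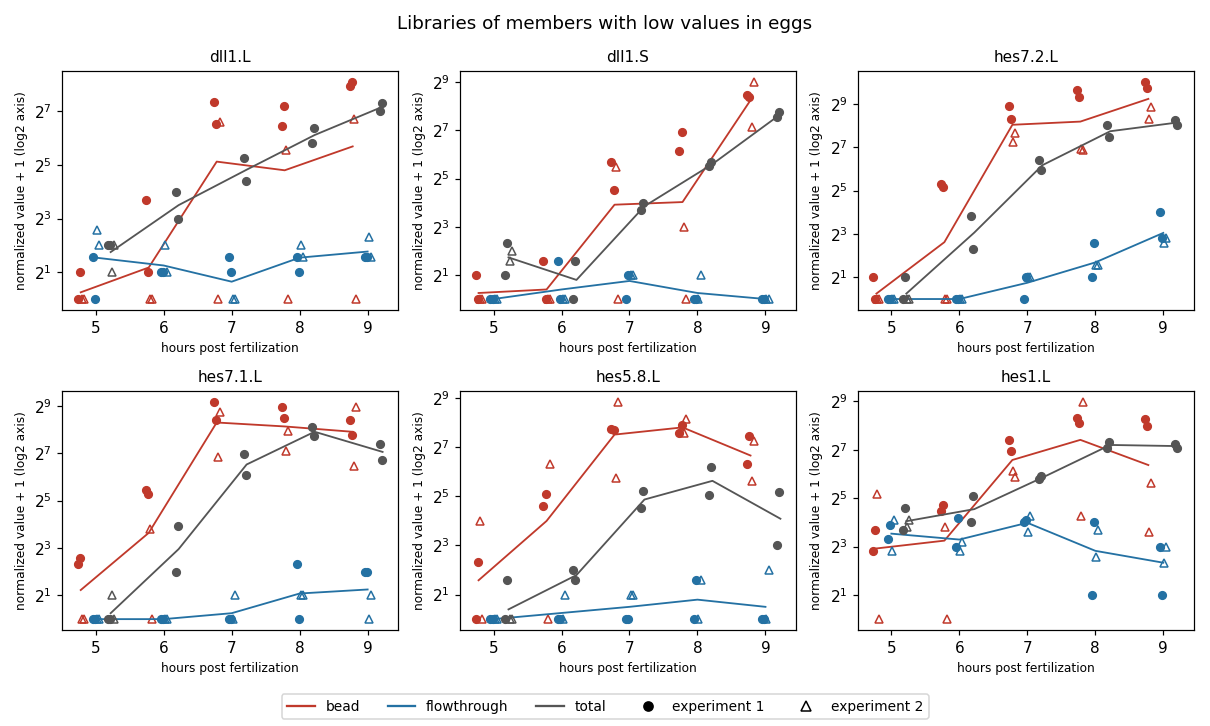
Normalized value + 1 on a log2 axis in each bead, flowthrough and total RNA library from 5 to 9 hours post fertilization for dll1.L, dll1.S, hes7.2.L, hes7.1.L, hes5.8.L and hes1.L, with filled circles for experiment 1, open triangles for experiment 2 and lines through the means of the log2 values. In bead RNA dll1.S reaches its highest values at 9 hpf, while the hes7.1.L and hes5.8.L lines are nearly as high or higher at 7 and 8 hpf.

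Receptor messages were present in eggs, and no receptor was called in any comparison over both experiments. The value of notch1.S, whose product is the receptor best known in early frog development, was 1535 and 1484 in eggs and 1447, 1450, 1361 and 1372 in total RNA of 5 hpf. At 9 hpf it was 1823 and 1899 in total RNA, above all other total and egg libraries. That change was 0.36 ± 0.08 on the log2 scale (adjusted p = 0.0113), past the p threshold and under 2-fold. In bead RNA it had 2462, 2901, 2166 and 2999 at 9 hpf, against 1765, 2001, 1592 and 1646 at 5 hpf, groups that did not overlap. The change of 0.58 ± 0.19 missed the p threshold (adjusted p = 0.06). With the replicate number as a block the change passed it (adjusted p = 0.0363), still under 2-fold. At 9 hpf the bead values were 0.64 ± 0.14 above the flowthrough values of 1654, 1738, 1636 and 1656 on the log2 scale (adjusted p = 0.000693), again under 2-fold.

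The L copy had different bead values in the 2 experiments. Bead RNA of 9 hpf held 561, 546, 334 and 35 of notch1.L, against 272, 215, 222 and 519 at 5 hpf, with overlapping groups, and the change was -0.22 ± 0.71 (adjusted p = 0.892). Experiment 1 alone called it higher, by 1.19 ± 0.23 (adjusted p = 0.00657). In total RNA notch1.L had 348 and 296 at 9 hpf and 221, 177, 243 and 140 at 5 hpf, without overlap and not called. Eggs held 479 and 209. The receptor notch3.L had 997 and 1039 in total RNA of 9 hpf and 1007, 896, 1025 and 927 at 5 hpf, and its change was 0.10 ± 0.12 (adjusted p = 0.762). The other receptors were near the floor of these data, since notch2.L, notch2.S and notch4.L never passed 19 and notch4.S was at 0 in most libraries, with a lone 176 in 1 bead library of 8 hpf.

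The fringe enzymes were called in no comparison over time. The value of lfng.S, lunatic fringe, was 227, 217, 251 and 242 in flowthrough RNA of 9 hpf, against 411, 322, 428 and 308 at 5 hpf, without overlap. The change of -0.63 ± 0.16 passed the p threshold (adjusted p = 0.00698) and was under 2-fold. For lfng.L the replicates varied widely, with 503, 358, 699 and 121 in bead RNA of 9 hpf and 334, 142, 317 and 152 at 5 hpf, and the change was 0.68 ± 0.58 (adjusted p = 0.521). Radical fringe, rfng.L, had 119, 116, 0 and 23 in bead RNA of 9 hpf and 109, 78, 122 and 75 in flowthrough RNA of 9 hpf. It was the only member called lower in bead than in flowthrough RNA at 9 hpf, by -1.98 ± 0.77 (adjusted p = 0.0458). The 2 low libraries were those of experiment 2, and the difference was 0.35 in experiment 1 alone. Leaving out bead replicate 3, bead replicate 4 or any 1 flowthrough library of 9 hpf also ended the call, at adjusted p of 0.0522 to 0.447, and without bead replicate 2 the count of lower members was 2.

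In the nuclear complex, rbpj.S had lower values with time, by under 2-fold, and rbpj.L was not called. The product of both binds DNA at Notch target genes. In total RNA rbpj.S had 418 and 394 in eggs, then 354, 363, 389 and 390 at 5 hpf, 340 and 385 at 6 hpf, 282 and 332 at 7 hpf, 259 and 304 at 8 hpf and 180 and 259 at 9 hpf. In flowthrough RNA it had 272, 196, 262 and 284 at 9 hpf, against 452, 382, 431 and 436 at 5 hpf, and neither fraction's groups overlapped. The change at 9 hpf was -0.73 ± 0.18 in total RNA (adjusted p = 0.0207) and -0.76 ± 0.12 in flowthrough RNA (adjusted p = 0.000107), both under 2-fold. The bead values of 208, 259, 217 and 257 at 9 hpf, against 388, 384, 259 and 380 at 5 hpf, gave -0.57 ± 0.34 (adjusted p = 0.344). The L copy had 570 and 482 in total RNA of 9 hpf and 515, 465, 617 and 635 at 5 hpf, a change of 0.10 ± 0.12 (adjusted p = 0.76). Whether the copies' changes differ was not tested.

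Of the Mastermind coactivators, maml1.L had 721 and 846 in total RNA of 9 hpf and 994, 778, 889 and 774 at 5 hpf, and maml2.S had 192 and 145 at 9 hpf and 236, 164, 206 and 185 at 5 hpf. Neither was called in any comparison. The value of maml3.S was at most 2 except for 100 and 43 in the bead libraries of 9 hpf in experiment 2. It was not tested over both experiments and was not called in experiment 2 alone (adjusted p = 0.138). Of the Hey repressors, hey1.L had 258, 198, 319 and 1343 in bead RNA of 9 hpf, against 146, 167, 143 and 110 at 5 hpf. These groups did not overlap, 1 library stood far above the rest, and the change of 1.45 ± 0.57 missed the threshold (adjusted p = 0.132). Total RNA gave 161 and 176 at 9 hpf and 148, 137, 155 and 135 at 5 hpf, also without overlap and not called (adjusted p = 0.752). The S copy was not called either, and hey2.L was never above 2.

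The Hes1, Hes2, Hes4 and Hes6 genes divided between the fractions. The message of hes1.L, a target of Notch and of other signals, had 22 and 21 in eggs and 12, 23, 13 and 16 in total RNA of 5 hpf, then 54 and 59 at 7 hpf, 134 and 158 at 8 hpf and 149 and 133 at 9 hpf. It was called higher in total RNA at 8 hpf (3.05 ± 0.40, adjusted p = 0.00112) and at 9 hpf (3.00 ± 0.40, adjusted p = 0.000708). In bead RNA hes1.L had 308 and 253 at 9 hpf in experiment 1 and 11 and 48 in experiment 2, against 6 and 12 and against 35 and 0 at 5 hpf. That change was not called in the fit over both (3.45 ± 1.25, adjusted p = 0.101) and was in experiment 1 alone (4.88 ± 0.36, adjusted p = 2.27e-05). The S copy, hes1.S, had 29 and 32 in total RNA of 9 hpf and 4, 0, 1 and 8 at 5 hpf (adjusted p = 0.043), a call lost without total 5 hpf replicate 2 or either library of 9 hpf. Of the Hes6 genes, hes6.1.S was called in bead RNA at 8 hpf, with 17, 14, 7 and 83, against 0 in all 4 libraries of 5 hpf (adjusted p = 0.014), and not at 9 hpf. Leaving out bead 5 hpf replicate 1 or 2 or bead 8 hpf replicate 4 ended that call.

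For hes4.L, bead RNA held 36, 54, 33 and 10 at 5 hpf, 91, 107, 26 and 71 at 6 hpf, 292, 274, 21 and 27 at 7 hpf, 355, 355, 36 and 281 at 8 hpf and 364, 341, 262 and 598 at 9 hpf. In experiment 1 the value was high from 7 hpf, and in experiment 2 from 8 and 9 hpf. The change at 9 hpf was 3.66 ± 0.88 in bead RNA (adjusted p = 0.00891) and -0.72 ± 0.26 in flowthrough RNA (adjusted p = 0.0636), and the bead minus flowthrough difference in change was 4.38 ± 0.88 (adjusted p = 0.000779). Total RNA had 145 and 160 at 9 hpf and 63, 124, 98 and 99 at 5 hpf, without overlap and not called (0.78 ± 0.32, adjusted p = 0.176). The gene44743 entry of hes4.S had 546, 530, 159 and 467 in bead RNA of 9 hpf and 60, 105, 75 and 146 in flowthrough RNA of 9 hpf, groups that did not overlap and were called different (2.06 ± 0.60, adjusted p = 0.00975). In experiment 2 alone that call was lost. The gene36932 entry had 384, 404, 96 and 0 in bead RNA and 17, 78, 22 and 67 in flowthrough RNA of 9 hpf and was not called.

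In flowthrough RNA, hes2.L, a repressor message present in eggs at 133 and 152, was lower at 9 hpf. In that fraction 26 members were tested, and at 9 hpf against 5 hpf none was called higher (2 had an unadjusted p under 0.05) and 1 lower, where 0.202% of all genes were called higher and 3.94% lower. No member was called in flowthrough RNA at 7 or 8 hpf against 5 hpf, where 0.0156% and 0.15% of all genes were higher and 0.0% and 0.565% lower, and of the members 0 and 0 had an unadjusted p under 0.05 in that direction and 4 and 3 in the other. The 1 lower at 9 hpf was hes2.L, with 16, 5, 25 and 9 at 9 hpf, against 86, 35, 119 and 35 at 5 hpf, groups that did not overlap. Its change was -2.25 ± 0.49 (adjusted p = 0.00268). Replicates 1 and 3 were about alike in hes2.L and so were replicates 2 and 4. With the replicate number as a block, 6 of the 26 members were called lower, where 5.42% of all genes were, the others being both hes4.S entries, hes5.4.L, hes6.1.L and jag2.S. For hes4.S the blocked changes were -1.23 ± 0.14 (adjusted p = 2.46e-09) at gene44743 and -1.48 ± 0.19 (adjusted p = 5.14e-08) at gene36932. At gene44743 the flowthrough values were 60, 105, 75 and 146 at 9 hpf and 173, 273, 169 and 268 at 5 hpf. The count without the block was 2 without flowthrough 9 hpf replicate 1 or 2 or flowthrough 5 hpf replicate 3, and 4 without flowthrough 9 hpf replicate 4. In each experiment alone it was 0, with an adjusted p for hes2.L of 0.104 in experiment 1 and 0.17 in experiment 2.

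**Figure D3:**
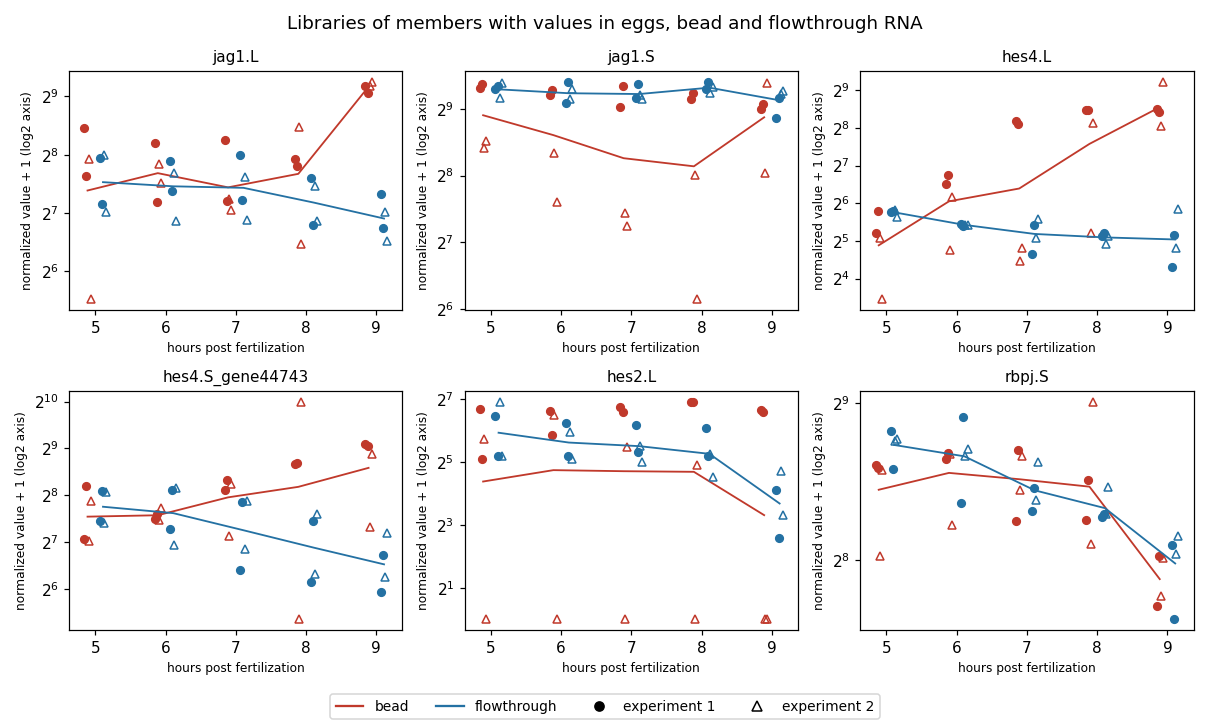
Normalized value + 1 on a log2 axis in each bead and flowthrough library from 5 to 9 hours post fertilization for jag1.L, jag1.S, hes4.L, the gene44743 entry of hes4.S, hes2.L and rbpj.S, marked as filled circles for experiment 1 and open triangles for experiment 2, with lines through the means of the log2 values. At 9 hpf the bead and flowthrough libraries of jag1.L, hes4.L and hes4.S are apart, and those of rbpj.S overlap.

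The Hes3, Hes5 and Hes7 genes are repressors that in vertebrates act in neural precursors and in the somite clock. Most of them lie in runs in the frog genome. In the RefSeq annotation of assembly Xenopus_laevis_v10.1, hes5.3 to hes5.10 follow one another as 8 neighbouring genes on chromosome 7L and again on 7S, and hes7.2 and hes7.1 are neighbours on 3L and on 3S. The files' own build is not given in the sources used here. Near-identical neighbours can share reads, so the split of a value between hes5 genes is uncertain.

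Both L copies of hes7 were called higher than at 5 hpf from 7 hpf on, in bead and in total RNA. At 6 hpf both were already called higher in bead than in flowthrough RNA, where 0.919% of all genes were. That call of hes7.2.L was lost without bead 6 hpf replicate 1 or 2. For hes7.2.L, bead RNA held 1, 0, 0 and 0 at 5 hpf, 39, 35, 0 and 0 at 6 hpf, 485, 313, 151 and 204 at 7 hpf, 802, 628, 121 and 115 at 8 hpf and 1042, 843, 319 and 461 at 9 hpf. Every library of 7 to 9 hpf was above every library of 5 and 6 hpf. The change at 9 hpf was 8.98 ± 0.98 in bead RNA (adjusted p = 1.33e-06) and 7.65 ± 0.58 in total RNA (adjusted p = 1.85e-05), where it had 304 and 262 at 9 hpf and 0, 1, 0 and 0 at 5 hpf. Flowthrough RNA of 9 hpf held 15, 6, 5 and 6. In bead and total RNA both L copies of hes7 passed the filter through libraries later than 5 hpf alone, so their p-values only describe them.

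The neighbour of hes7.2.L, hes7.1.L, had its highest group mean in bead RNA of 7 hpf. Whether the courses of these neighbours differ was not tested. In bead RNA hes7.1.L had 4, 5, 0 and 0 at 5 hpf, 43, 38, 13 and 0 at 6 hpf, 574, 336, 115 and 428 at 7 hpf, 499, 361, 135 and 246 at 8 hpf and 340, 216, 88 and 492 at 9 hpf. Total RNA gave 123 and 67 at 7 hpf, 270 and 210 at 8 hpf and 165 and 105 at 9 hpf. The values of 7 and 9 hpf overlapped in both. It was called higher at 7, 8 and 9 hpf than at 5 hpf in bead and in total RNA, with a bead change of 7.07 ± 1.02 at 7 hpf (adjusted p = 0.000222) and 6.67 ± 1.02 at 9 hpf (adjusted p = 9.14e-05). Of the S copies, hes7.2.S rose in bead RNA to 222, 256, 3 and 603 at 9 hpf, against 0 in all 4 libraries of 5 hpf (adjusted p = 0.00245). One of its egg libraries held 26 and the other 0. In total RNA hes7.1.S was called higher at 8 and 9 hpf, with no library above 36. At 9 hpf the total RNA calls of hes7.1.S and hes7.2.S were lost without replicate 1 of that time.

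In the hes5 run, hes5.8.L was called higher than at 5 hpf in bead RNA at 7, 8 and 9 hpf. Bead RNA held 0, 4, 15 and 0 at 5 hpf, 23, 33, 0 and 78 at 6 hpf, 210, 209, 53 and 459 at 7 hpf, 190, 241, 187 and 284 at 8 hpf and 79, 172, 48 and 152 at 9 hpf, where the values of 9 hpf lay below those of 8 hpf in each replicate. The change at 9 hpf was 5.08 ± 1.26 (adjusted p = 0.0115), and without bead 5 hpf replicate 1 its adjusted p was 0.0529. For hes5.6.S bead RNA held 77, 20, 196 and 76 at 9 hpf, against 2, 0, 0 and 0 at 5 hpf (5.75 ± 1.34, adjusted p = 0.00682). Total RNA of hes5.6.S had 20 and 32 at 9 hpf and at most 1 at 5 hpf. At the end of the run, hes5.10.S had 77, 48, 94 and 0 in bead RNA of 9 hpf and 1, 0, 1 and 0 at 5 hpf (4.12 ± 1.16, adjusted p = 0.0287), and hes5.10.L had 21, 35, 0 and 96, against 0 in every bead library of 5 hpf. Both calls were lost without single bead libraries, for hes5.10.S without 5 hpf replicate 1, 2 or 4 or 9 hpf replicate 1 or 3 and for hes5.10.L without 5 hpf replicate 1 or 2 or 9 hpf replicate 4.

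Of the 26 Hes3, Hes5 and Hes7 genes 18 were tested in bead RNA and 9 were called higher at 9 hpf, where 5.83% of all genes were. In total RNA 17 were tested, 12 were higher and 1 lower, where 6.25% and 2.0% of all genes were. As above, a gene that passed the filter only through late libraries had to differ. For hes5.7.S bead RNA of 7 hpf held 42, 27, 8 and 83 and flowthrough RNA of 7 hpf 0, 1, 3 and 1, groups that did not overlap (3.95, adjusted p = 0.0109), and the call was lost without bead replicate 4. The bead values of hes3.L were 62, 26, 8 and 54 at 9 hpf, against 0, 3, 0 and 0 at 5 hpf, and those of hes5.8.S were 18, 15, 0 and 89 at 9 hpf, against 0 in all 4. The hes3.L call was lost without bead 5 hpf replicate 1 or bead 9 hpf replicate 4, and the hes5.8.S call without any single bead library of 5 hpf or without 9 hpf replicate 1, 2 or 4. One member went the other way. In total RNA hes5.4.L had 0 and 1 in eggs, 13, 22, 19 and 19 at 5 hpf, 32 and 16 at 6 hpf, 14 and 11 at 7 hpf, 4 and 4 at 8 hpf and 4 and 1 at 9 hpf. It was the only member of 48 called higher at 5 hpf than in eggs (3.82, adjusted p = 0.028), where 0.237% of all genes were, and none was called lower (1 had an unadjusted p under 0.05), where 0.283% of all genes were. The call of hes5.4.L was lost without egg replicate 1 or total 5 hpf replicate 3 or 4, the count of higher members was 2 without egg replicate 2, and 1 member was lower without egg replicate 1. Its fall at 9 hpf was -2.50 (adjusted p = 0.027) and was lost without total 5 hpf replicate 1 or 2 or total 9 hpf replicate 2.

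**Figure D4:**
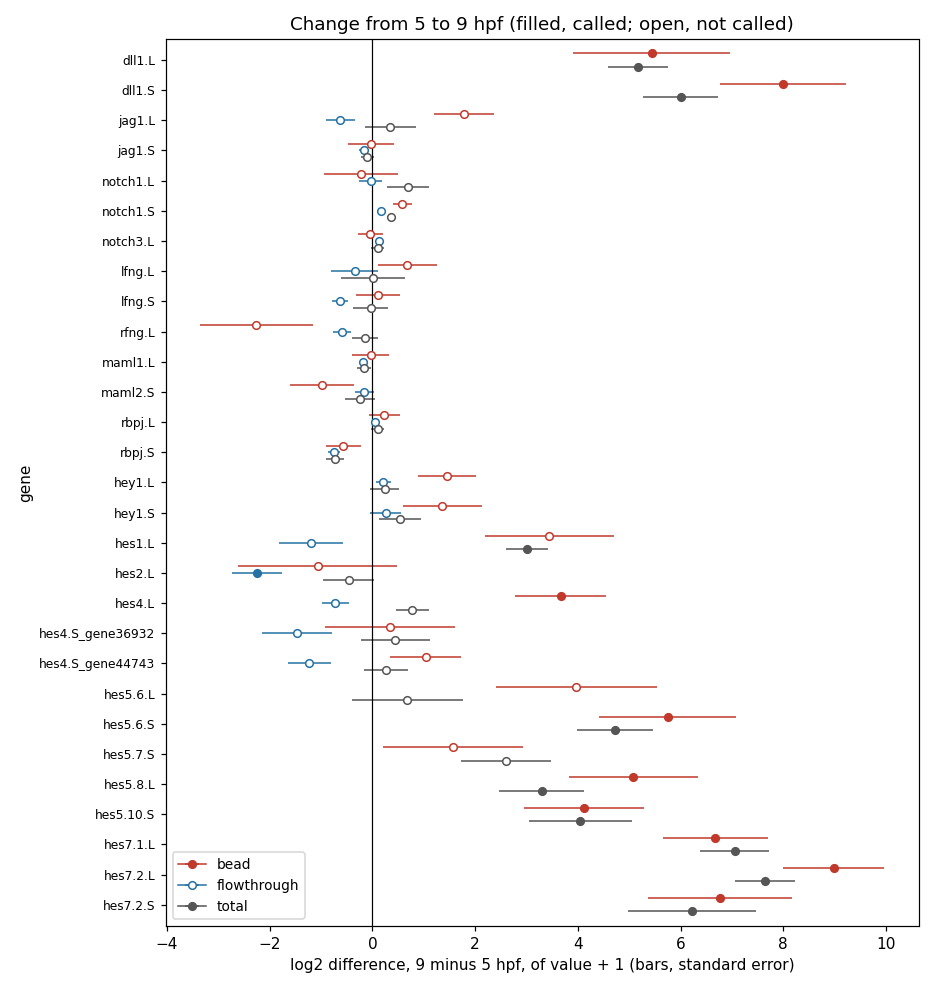
Difference of log2(value + 1) between 9 and 5 hours post fertilization with its standard error for the 29 members described with their values, in bead, flowthrough and total RNA where tested, with filled points for called changes. The dll1, hes5, hes7 and hes1.L points lie right of 0 in bead and total RNA, the receptors and nuclear partners lie within 1 of 0, and hes2.L is the filled flowthrough point left of 0.

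A direct comparison of 9 with 7 hpf asked which members went on rising. It was chosen after the values had been seen. In total RNA 3 members were called higher at 9 hpf, dll1.L, dll1.S and hes5.10.L, where 3.27% of all genes were, and each call was lost when any 1 of the 4 libraries was left out. None was called lower (2 had an unadjusted p under 0.05), where 0.562% of all genes were. In bead RNA none was called higher (6 had an unadjusted p under 0.05) or lower (none had one), where 1.88% of all genes were called higher and 0.29% lower. With bead 7 hpf replicate 3, bead 9 hpf replicate 3 or bead 9 hpf replicate 4 left out, 1 member was higher. The bead values of hes7.1.L and hes5.8.L at 9 hpf were thus not called lower than at 7 hpf, and 9 was not tested against 8 hpf.

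Bead RNA was then set against flowthrough RNA, the RNA not captured, at each time. Of 47 members tested, the number called higher in bead than in flowthrough RNA was 0 at 5 hpf (0 at an unadjusted p under 0.05), 4 at 6 hpf, 13 at 7 hpf, 19 at 8 hpf and 20 at 9 hpf, where 0.436%, 0.919%, 3.39%, 6.59% and 9.35% of all genes were. Lower were jag1.S at 8 hpf and rfng.L at 9 hpf, where 8.28% and 18.9% of all genes were lower. At 5, 6 and 7 hpf, where 1.47%, 2.49% and 3.05% of all genes were lower, no member was called lower and 2, 4 and 5 had an unadjusted p under 0.05. At 8 hpf jag1.S had 569, 605, 257 and 70 in bead RNA and 630, 679, 602 and 642 in flowthrough RNA, and the call was lost without bead replicate 4 (adjusted p = 0.0653). The median log2 difference at 9 hpf was 1.92 over the members and -0.69 over all genes. Of the Hes3, Hes5 and Hes7 genes 18 were tested here, against 1 in the fit of flowthrough RNA alone. A member that passed the filter only through bead libraries had to differ, so these counts and medians describe the members and support nothing further. In experiment 1 alone 28 members were higher at 9 hpf, where 9.04% of all genes were, and in experiment 2 alone 8 were, with 7 of the 20 among them, where 7.74% were. At 6 hpf the count was 2 without bead 6 hpf replicate 4. At 9 hpf the 20 were 3 ligands, dll1.L, dll1.S and jag1.L, 4 genes of the Hes1 to Hes6 group, hes1.L, hes1.S, hes4.L and the gene44743 entry of hes4.S, and 13 Hes3, Hes5 and Hes7 genes. No receptor, fringe, nuclear complex or Hey gene was among them. Of the 20, 5 lost the call when single libraries were left out, dll1.L and hes5.10.S without bead 9 hpf replicate 3 and hes1.S, hes5.7.L and hes5.9.L without 6, 7 and 6 of the 8 libraries.

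For hes5.6.L the call rested on experiment 2. Its bead values at 9 hpf were 13, 1, 135 and 382, against 0 in all 4 flowthrough libraries, and the adjusted p was 0.0026 over both experiments and 0.334 in experiment 1 alone. Among members the difference was largest for dll1.S, for which all 4 flowthrough libraries of 9 hpf were listed at 0.

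The change from 5 to 9 hpf itself differed between the fractions for 11 of 47 members, all with the larger change in bead RNA, where 4.6% of all genes were. They were dll1.S, jag1.L, hes1.L, hes3.L, hes4.L, hes5.6.S, hes5.8.L, hes5.10.L, hes7.1.L, hes7.2.L and hes7.2.S, and 25 members had an unadjusted p under 0.05. A member that passed the filter only through late bead libraries had to differ, so this count only describes the members. In experiment 1 alone 21 members were called, 8 of these 11 among them, where 6.06% of all genes were, and in experiment 2 alone 2 were, where 1.54% were. Single libraries left out ended the calls of hes1.L, hes5.8.L and hes5.10.L in 10, 8 and 3 of 16 cases. For jag1.L the difference in change was 2.40 ± 0.66 (adjusted p = 0.0214). It was lost in each experiment alone and without bead 5 hpf replicate 4, flowthrough 5 hpf replicate 1 or 3 or flowthrough 9 hpf replicate 2.

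The L share of a pair of copies is free of library scaling and of gene length when it is compared between fractions. Of 26 pairs of members, 5 had L and S values that summed to at least 50 in each bead and flowthrough library of 9 hpf. The L share of jag1 was 53.0, 49.8, 68.9 and 47.6% in bead RNA, against 25.7, 15.7, 17.7 and 12.8% in flowthrough RNA. Its mean was 54.8 ± 9.63% in bead RNA and 18.0 ± 5.52% in flowthrough RNA (SD, n = 4 each), without overlap. The log2 ratio of L over S differed by 2.52, and a two-sided exact permutation test gave p = 0.0286, the smallest that 4 against 4 can give, which is 0.143 after adjustment over the 5 pairs. The test took the libraries as independent, although replicate numbers pair bead with flowthrough libraries. The shares of hey1, lfng, notch1 and rbpj overlapped between the fractions, with exact permutation p of 0.6 to 1.0. The rbpj share was 67.3 to 71.6% in bead RNA and 67.8 to 77.3% in flowthrough RNA.

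**Figure D5:**
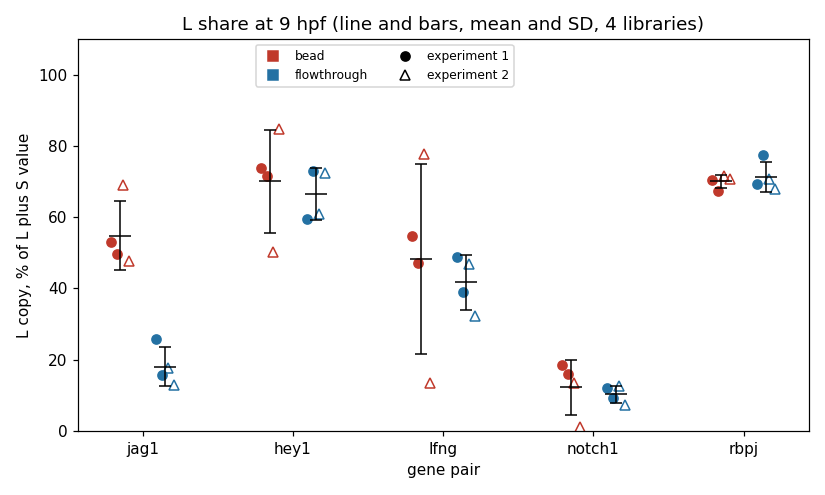
Share of the L copy in the summed L and S value of 5 gene pairs at 9 hours post fertilization, with bead libraries left of flowthrough libraries, circles for experiment 1, triangles for experiment 2 and lines and bars for the mean and SD of 4 libraries. The jag1 shares are 47.6 to 68.9% in bead RNA and 12.8 to 25.7% in flowthrough RNA, and the other pairs overlap.

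Genes around the pathway were grouped by role. One list held proneural and ciliated-cell genes that Notch holds back in Xenopus. In bead RNA 14 of 29 were tested. At 9 hpf against 5 hpf none was lower (1 had an unadjusted p under 0.05), where 1.43% of all genes were. Higher were 6, where 5.83% of all genes were. Among them neurog3.S, a proneural factor, had 194, 134, 318 and 393 at 9 hpf, against 1, 0, 0 and 0 at 5 hpf, foxi1.L, a factor of the frog epidermis, had 699, 585, 436 and 890, against 0, 1, 37 and 0, and foxj1.S, which drives motile cilia, had 106, 111, 111 and 239, against 0, 3, 0 and 0. These groups did not overlap, and the adjusted p were 1.53e-05, 0.000124 and 0.000211. A listed gene that passed the filter only through late libraries had to differ. The counts and p-values of this paragraph thus describe the genes and support nothing further. The list's most abundant genes not called in bead RNA were neurog2.S and myt1.L. In flowthrough RNA myt1.L, a zinc finger factor of neuron formation, fell to 25, 24, 25 and 28 at 9 hpf, against 55, 56, 63 and 59 at 5 hpf (-1.16 ± 0.25, adjusted p = 0.00237). Of 10 tested helix-loop-helix partners outside the Hes family 2 were higher, against the same 5.83% of all genes, both copies of id3, an inhibitor that binds helix-loop-helix factors. In bead RNA id3.L had 2024, 1523, 883 and 737 at 9 hpf and 2, 0, 0 and 0 at 5 hpf, while id2.S, with 989, 921, 1171 and 1036 at 9 hpf and 1362, 1472, 691 and 1007 at 5 hpf, and tcf3.S were not called.

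The machinery that sends, cuts and reads the signal was tested in bead RNA over time, where 5.83% of all genes were higher and 1.43% lower. None was called among 15 tested genes of ligand ubiquitination and endocytosis, 15 of gamma-secretase and sheddases, 18 of receptor turnover, 20 Rbpj corepressors and 10 coactivators, of which 3, 3, 4, 4 and 2 had an unadjusted p under 0.05 by limma. Some passed the p threshold with a rise under 2-fold. Among them were the coactivators ep300.L (0.79 on the log2 scale, adjusted p = 3.03e-05) and ep300.S (0.45, adjusted p = 0.0312). The corepressors ncor1.L (0.70, adjusted p = 0.00962) and hdac1.L (0.56, adjusted p = 0.0423) did so too. Of 8 tested receptor glycosylation genes gxylt1.L was lower (adjusted p = 0.0489). It had 232, 238, 0 and 50 at 9 hpf and 364, 354, 384 and 517 at 5 hpf. The ligand ubiquitin ligase gene neurl1b.L had 99 and 126 in total RNA of 9 hpf and 1, 1, 1 and 0 at 5 hpf (5.82 ± 0.81, adjusted p = 0.000896). It had 135, 158, 0 and 15 in bead RNA and 0, 0, 2 and 0 in flowthrough RNA of 9 hpf, groups that overlapped and were called different (adjusted p = 0.000938). Values of neurl1b.L were under 10 in eggs, at 5 hpf and in flowthrough RNA of 9 hpf. It passed the filter through other libraries alone, so these p-values only describe it. Set against flowthrough RNA at 9 hpf, the lists of ubiquitination and endocytosis, gamma-secretase and sheddases, glycosylation, turnover, corepressors and coactivators had 1, 2, 0, 1, 2 and 1 genes called higher in bead RNA and 4, 4, 3, 2, 1 and 0 called lower, of 15, 15, 8, 19, 20 and 10 tested, where 9.35% of all genes were higher and 18.9% lower. Among the lower were mib1.L, the ligase that acts on Delta, with 649, 695, 68 and 0 in bead RNA and 795, 845, 731 and 711 in flowthrough RNA, and dnm2.L and nedd4l.L, in each of which the bead libraries of experiment 2 were near 0 and those of experiment 1 were not. Among the higher, ep300.L, a coactivator, had 7686, 8430, 15439 and 17510 in bead RNA and 5245, 5184, 5134 and 5361 in flowthrough RNA. Its bead values were higher in experiment 2 than in experiment 1, and the part of the experiment in this difference was not tested.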

How the data were processed

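RNA was measured by sequencing ribosome-depleted libraries (NuGEN Universal RNA-seq, per the labels' protocols) of 20 bead, 20 flowthrough, 12 total RNA and 2 egg samples. The deposited values are scores here: per the submitters' processing notes and file name the authors used Salmon 0.12.0 and DESeq2, and the values are DESeq2-normalized and rounded to whole numbers. Depth per library is therefore unknown, the genome build is not given in the sources used here, and no count test was run. One column of the table was not used.

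Members and lists were chosen with earlier results of these data known. A gene was tested where as many libraries as the smallest group holds reached 10. The test was limma 3.58.1 (statmod 1.5.0, R 4.3.3), trended and robust, on log2(value + 1). This understates changes of genes low in all libraries. Where single libraries are at or near 0, a change can instead be larger than that of the means. For dnm2.L at 9 hpf the mean was 261.25 in bead and 577.5 in flowthrough RNA, and the log2 difference was -3.58. Fits held all libraries of a fraction, or of bead and flowthrough RNA together, with a term for experiment, and p-values were adjusted over all genes tested by Benjamini and Hochberg. The fits were also run on simulated libraries drawn independently, without clutch pairing and with changes only in genes of mean at least 50. That run cannot speak to paired libraries or low members. A member was described with its values if called with a group mean of at least 50, or not called with one of at least 200. Of each other list, up to 3 called and 2 uncalled genes were named. Python 3.11.15 with pandas 2.3.3, numpy 2.4.6, scipy 1.17.1 and matplotlib 3.10.9 made the summaries, permutation tests and figures.

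Replicate numbers mark clutches within an experiment and so pair samples. The fits reported had no block for them, and blocked values are given for only some of the calls that the block changes. Of 134 member calls 2 were lost with it. Deviations of libraries from the mean of the 2 libraries of their experiment and time were correlated between times for each replicate number. They correlated at 0.755 to 0.870 in flowthrough RNA. In bead RNA it was 0.610 to 0.729 for replicates 1 and 2 and 0.0837 to 0.201 for replicates 3 and 4. Replicates 1 and 2, and 3 and 4, have the same correlations by construction. Without the block, p-values rest on the spread between libraries taken as independent, which these correlations show they were not. Alternatives were a pseudocount of 10, no filter, quantile normalization, the replicate block, each experiment alone, no experiment term and leaving out each library. The averaging of replicates 1 with 3 and 2 with 4, and the comparison of 9 with 7 hpf, were chosen after seeing the data.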

Additional observations from a re-analysis of the deposited data

Results flagged for a closer look

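Of 104 member groups of 4 libraries screened by Dixon's test, 2 had a library far from the others, and chance gives about 1 in 20. The value of hey1.L was 1343 in bead 9 hpf replicate 4, and that of rbpj.S was 259 in bead 5 hpf replicate 3.

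The change from 5 to 9 hpf in bead RNA minus that in flowthrough RNA, on the log2 scale, differed from 0 by limma's interaction term for 11 members. It was 8.00 for dll1.S, 6.51 for hes7.2.S, 5.93 for hes7.2.L, 5.75 for hes5.6.S and 5.42 for hes7.1.L. The difference was 4.65 for hes1.L, 4.58 for hes5.8.L, 4.42 for hes3.L, 4.38 for hes4.L, 4.06 for hes5.10.L and 2.40 for jag1.L. For members at or near 0 at 5 hpf its size depends on the value added before the logarithm. Members that passed the filter only through late bead libraries had to differ. Of all genes tested, 4.6% were called with the larger change in bead RNA.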

How the results depend on the processing

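Of 134 member calls over all comparisons, 132 were kept with the replicate block, 124 without a filter, 115 after quantile normalization, 111 with a pseudocount of 10 and 98 without an experiment term. In experiment 1 alone 114 of 133 were kept and in experiment 2 alone 16 of 77. After averaging replicates 1 with 3 and 2 with 4, 84 of 93 were kept. The cause of each difference was not tested. One call reversed, that of rfng.L in bead against flowthrough RNA at 9 hpf, which was 0.35 in experiment 1 alone.

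In bead RNA the number of members higher than at 5 hpf changed as follows. Experiment 1 alone gave 2 at 6 hpf, 16 at 7 hpf, 21 at 8 hpf and 25 at 9 hpf, and experiment 2 alone gave 0 at 7, 8 and 9 hpf. Without an experiment term the number was 3 at 7 hpf and 6 at 9 hpf, and at 7 hpf a pseudocount of 10 and the averaging each gave 3. Of all genes, 8.3%, 1.23% and 3.6% were called higher at 9 hpf in experiment 1 alone, experiment 2 alone and without the term. The share of all genes thus moved with the setting too, so the counts in this section are no result about the members. Leaving out single libraries gave 2 to 4 at 7 hpf, 4 to 12 at 8 hpf and 6 to 12 at 9 hpf. Between 9 and 7 hpf 2 were higher with a pseudocount of 10 or quantile normalization, 1 with the replicate block, 5 in experiment 1 alone and 0 to 1 with single libraries left out.

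In flowthrough RNA at 9 hpf the number lower was 6 with the replicate block, where 5.42% of all genes were. It was 7 after averaging, 2 without an experiment term, 0 in each experiment alone and 1 to 4 with single libraries left out, and 1 was higher without a filter. In total RNA the number higher at 7 hpf was 3 with a pseudocount of 10, without a filter or after quantile normalization, 8 without an experiment term and 2 to 3 with single libraries left out. At 8 hpf leaving out libraries gave 7 to 13. At 9 hpf quantile normalization gave 9 and leaving out libraries 10 to 14, while 2 members were lower with the block and 0 to 1 with libraries left out. Between 9 and 7 hpf a pseudocount of 10 gave 7 and leaving out any library 0. Against eggs, 0 were higher in experiment 2 alone and 0 to 2 with libraries left out, and 1 was lower with the block and 0 to 1 with libraries left out.

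For bead against flowthrough RNA at 6 hpf, a pseudocount of 10 gave 2, experiment 2 alone and no experiment term 0, and libraries left out 2 to 4. At 7 hpf experiment 2 alone gave 2 and no experiment term 8, and at 8 hpf 4 and 12. At 9 hpf experiment 2 alone gave 8 higher, where 7.74% of all genes were, and 2 lower. Libraries left out gave 17 to 25 higher and 0 to 2 lower. No member was lower at 9 hpf with a pseudocount of 10, without a filter, after quantile normalization, in experiment 1 alone or without an experiment term. The difference in change was called for 21 in experiment 1 alone and 2 in experiment 2 alone, where 6.06% and 1.54% of all genes were. It was called for 8 to 13 with libraries left out. The log2 difference in L over S was 2.23 to 2.75 for jag1, -0.0584 to 0.76 for hey1, -0.37 to 1.13 for lfng, -0.66 to 0.75 for notch1 and -0.18 to 0.051 for rbpj with libraries left out. The replicate block changed no other count of calls by over 1.5 times. The few libraries, and zeros in bead RNA of experiment 2, limit what low members can show.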
